A study of Homo sapiens with 5 samples.

Results

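In places, the start sites called from nascent RNA of HUDEP-2 cells were packed into dense runs on a single strand. HUDEP-2 is an immortalised line of human erythroid progenitors. A run was taken as 4 or more calls of 1 strand in which every gap between neighbouring calls was at most 500 bp, on chromosomes 1 to 22 and X. There were 118 such runs, 66 forward and 52 reverse, among 24741 groups of calls joined in this way, single calls included. The runs held 666 of 28159 calls, or 2.37% (Wilson 95% interval 2.19% to 2.55%). Intervals here cover counting over calls, runs or genes only, and neighbouring calls of a run share their locus, so they are not independent. The members were chosen by the call positions themselves, so sizes, gaps and densities below describe what the rule selected and were not tested.

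The assay was PRO-seq, precision run-on sequencing, in which engaged polymerases in isolated nuclei add biotin-tagged nucleotides to their RNA, and the tagged RNA is pulled down for sequencing. The study made 5 libraries. Of these, 3 came from sg1617-edited single-cell clones, each 1 clone and 1 library, in which the BCL11A enhancer had gained 1 bp, lost 13 bp or lost 15 bp by the insertion or deletion named in the labels. The other 2 came from unedited, wild-type HUDEP-2 cells. The call lists came from a single alignment of HUDEP-2 cells and have no column per library, so edited clones could not be compared with unedited cells. The lists have no replicate, the reads behind each call are unknown, and every call carried a score of 0.

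A start-site caller of this kind looks for places where the 5′ ends of nascent RNA pile up. At most active promoters RNA polymerase II starts at a cap site, pauses just downstream and is also found on the opposite strand, in the divergent direction. Nascent RNA further along a gene, or past its polyadenylation site, is normally covered by elongating or terminating polymerases, so a call in those places is not by itself a promoter, and whether transcription began at each call was not established here.

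The promoters shown belong to runs that began within 50 bp of an annotated start, because there the first call and a promoter coincide. They are 6 of the named genes that the RefSeq promoter table holds, taken in order of calls, and HBB and ZFP36L2 were not shown for want of an entry. Each runs from 100 bases before the start to the 25th base of the transcript, 5′ to 3′ on the gene's strand, from RefSeq assembly GRCh38.p14, and capitals mark motif matches found by letter on either strand. They lie at chr3:196082066-196082190 (TFRC, reverse), chr17:28861966-28862090 (LOC124903966, reverse), chr10:72273824-72273948 (DDIT4, forward), chr6:30617219-30617343 (PPP1R10, reverse), chr6:26056446-26056570 (H1-2, reverse) and chr6:27867564-27867688 (H1-5, reverse).
TFRC: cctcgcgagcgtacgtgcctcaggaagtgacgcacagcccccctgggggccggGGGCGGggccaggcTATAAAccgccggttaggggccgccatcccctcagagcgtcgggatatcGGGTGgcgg
LOC124903966: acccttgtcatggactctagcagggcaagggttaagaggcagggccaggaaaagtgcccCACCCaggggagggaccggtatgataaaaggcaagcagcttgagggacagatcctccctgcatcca
DDIT4: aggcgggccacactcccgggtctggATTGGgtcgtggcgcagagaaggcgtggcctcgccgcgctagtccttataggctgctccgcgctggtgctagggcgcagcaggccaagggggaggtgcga
PPP1R10: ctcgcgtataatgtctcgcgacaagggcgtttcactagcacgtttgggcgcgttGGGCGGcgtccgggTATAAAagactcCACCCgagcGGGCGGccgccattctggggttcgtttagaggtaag
H1-2: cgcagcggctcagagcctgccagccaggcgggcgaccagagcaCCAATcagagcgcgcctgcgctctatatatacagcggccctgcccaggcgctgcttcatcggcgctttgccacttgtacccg
H1-5: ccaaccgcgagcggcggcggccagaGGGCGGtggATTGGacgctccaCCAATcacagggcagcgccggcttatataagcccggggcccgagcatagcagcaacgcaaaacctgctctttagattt
Across promoters in the RefSeq table, 26 had the first call of a run within 50 bp of the start. The letters TATAAA stood in 11 of these 26 windows (42.3%), in 2.12% of 8017 windows at other calls and in 5.50% of all 34961 windows of the table. The letters CCAAT stood in 17 of the 26 (65.4%), in 26.1% at other calls and in 19.8% of all. GGGCGG stood in 8 of 26 (30.8%), in 59.7% at other calls and in 33.3% of all. CACCC was found in 11 of 26 (42.3%), in 32.6% at other calls and in 33.2% of all. AGATAA, the letters of a GATA-factor motif, stood in 1 of 26, in 87 of the 8017 at other calls (1.09%) and in 1399 of all 34961. Both strands were read, and no motif of the 5 holds another. Histone genes supplied 13 of the 26 promoters. In the 13 that remained without them TATAAA stood in 4, CCAAT in 5, GGGCGG in 5, CACCC in 8 and AGATAA in 0. In TFRC and PPP1R10 the TATAAA began 33 and 32 bases before the start. A match is a match of letters and not a bound site.

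Most runs were short, and a few were very long. Of the 118, 68 had 4 calls, 19 had 5 and 31 had 6 or more, with 19 calls at most. The 12 runs of 10 or more calls held 159 of the 666 calls (23.9%). From the first to the last call, runs spanned 771 to 5982 bp with a median of 1172 bp, and their density was 3.56 calls per kb over 187065 bp of run in all. Just under the threshold of 4 calls lay 315 groups of 3, and below them 2240 groups of 2 and 22068 single calls.

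**Figure D1:**
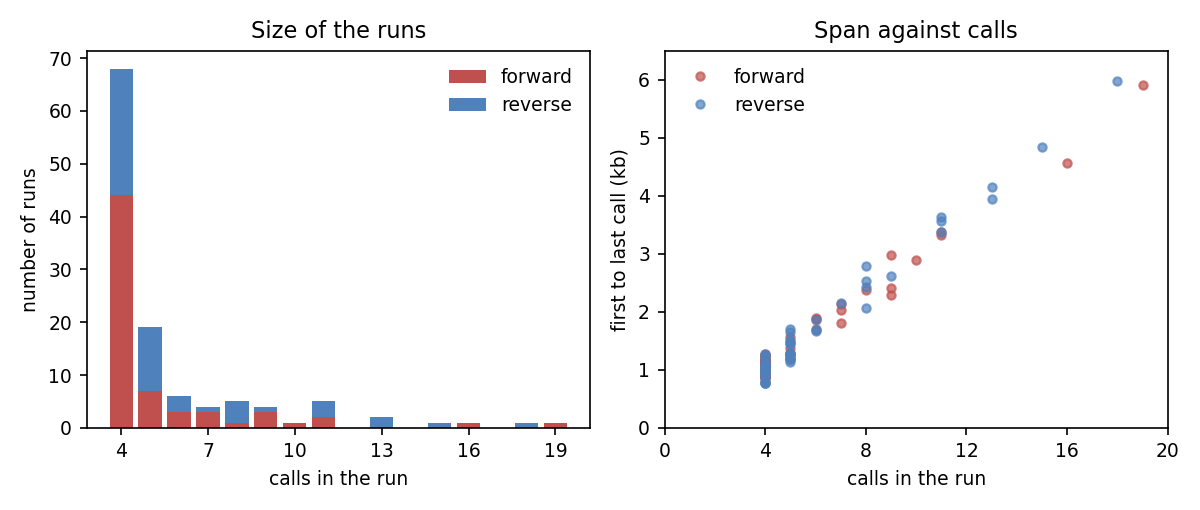
Left, number of runs by calls per run, stacked by strand. Right, distance from the first to the last call (kb) against calls per run, with 1 point per run; 68 of the 118 runs had 4 calls, and the longest reached 5982 bp.

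Neighbouring calls within runs mostly lay between 250 and 400 bp apart. The 548 gaps had a median of 328 bp (quartiles 278 and 391, range 206 to 499 bp), and the 2870 gaps in groups of 2 or 3 calls had a median of 345 bp (quartiles 288 and 414). In runs 37.8% of gaps were 250 to 299 bp long (33.8% to 41.9%), and in groups of 2 or 3 calls 31.3% were (29.7% to 33.0%). Gaps under 250 bp were nearly absent from both lists. The 2 that occurred were both in runs, of 206 bp in the run at SLC25A37 and 232 bp in the run before RALGDS. The commonest gap in runs was 265 bp. Near the rule's limit, 103 gaps of all same-strand gaps were 491 to 500 bp long, 8 of them in runs, and 87 were 501 to 510 bp long.

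**Figure D2:**
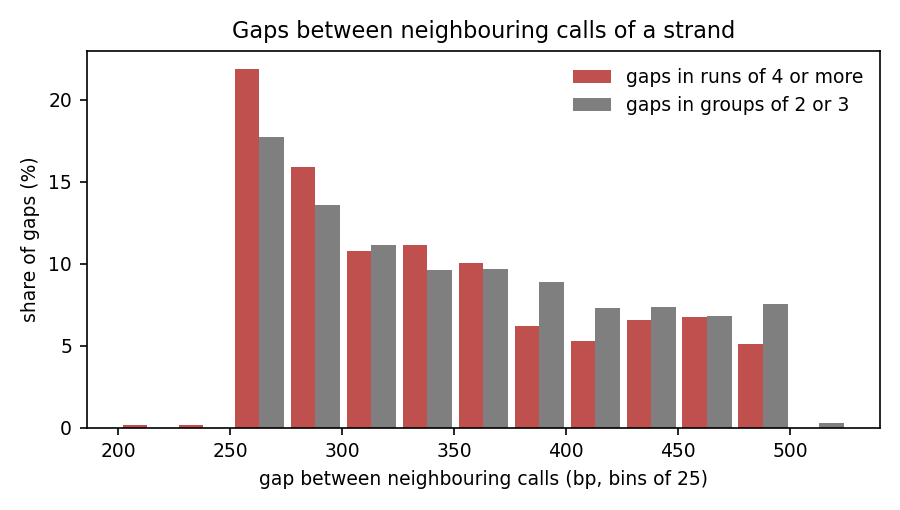
Share (%) of gaps by length (bp, bins of 25) in runs of 4 or more calls and in groups of 2 or 3 calls. Both sets start near 250 bp and decline, with 37.8% of gaps in runs and 31.3% of gaps in groups of 2 or 3 between 250 and 299 bp.

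A few runs were almost evenly spaced. The coefficient of variation of the gaps (standard deviation over mean) had a median of 0.197 over runs and was lowest, at 0.00669, in the inner run of PPP1R10, a regulatory subunit of protein phosphatase 1 that takes part in transcription termination. Its 4 calls lay 257, 260 and 260 bp apart. Runs at the histone genes H3C11 (gaps of 254 to 260 bp) and H2BC21 (254 to 261 bp) followed, with 0.0117 and 0.0136. These runs had only 4 calls each, and all their gaps lay just above 250 bp, below which gaps were nearly absent. They were picked as the lowest of 118 values, and a regular spacing at these genes was not tested. The most uneven run, past the end of SLC3A2, had gaps of 261 to 499 bp.

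Erythroid genes hosted several of the longest runs. At HBB, the adult beta-globin gene (gene ID 3043, hg38 chromosome 11, 5225464 to 5227071, reverse strand), 11 calls lay at 0, 309, 756, 1037, 1472, 1726, 2075, 2491, 2792, 3085 and 3557 bp from the annotated start. The first had the same deposited position as the annotated start, 5 lay in the gene and 6 lay past its end, the last 1950 bp past it. At HBA1, an alpha-globin gene on chromosome 16, 9 calls lay 814 to 3108 bp from the start, of which 1 was in the gene and 8 past it. At its near-identical copy HBA2, 4 calls lay 861, 1302, 1625 and 1885 bp from the start, all past the end. Reads of the alpha-globin copies cannot be assigned with certainty, and how the authors treated reads with several matches is not given in the sources used here. No run was hosted by the other 7 globin genes listed, the fetal genes HBG1 and HBG2 among them.

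KLF1, an erythroid zinc-finger activator of beta-globin (chromosome 19, 12884422 to 12887201, reverse strand), hosted a run of 15 calls that began 917 bp inside the gene. The first 6 calls were inside KLF1 and 9 lay past it, the last 2986 bp beyond the end. That last call was just inside the neighbouring gene DNASE2 on the same strand, next to its annotated start. Whether it belongs to KLF1 or to DNASE2 was not tested. TFRC, the transferrin receptor that takes up iron, hosted a run of 13 calls at its start and a run of 8 across its end, far downstream. In the first run the calls lay at -1, 362, 785, 1042, 1373, 1635, 2059, 2342, 2827, 3088, 3347, 3817 and 4153 bp from the start. The second run began 32076 bp from the start, with 2 calls inside the gene and 6 past it, the last 1800 bp past the end. CA1, the red cell carbonic anhydrase I gene, hosted 4 runs, more than any other gene. They held 5 calls at the start, 9 calls from 4455 bp, 6 calls from 7582 bp and 8 calls past the end, the last of these 3012 bp past it. SLC25A37, the mitochondrial iron importer known as mitoferrin, hosted 7 calls in its last part, the final one 649 bp short of the end. EPOR, the erythropoietin receptor, hosted 6 calls that all lay past its end, from 599 to 2285 bp past it. Of these, 4 lay inside SWSAP1, a gene of the opposite strand.

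The 13 calls at LOC124903966, a long non-coding RNA gene of 780 bp on chromosome 17, lay at 1, 253, 566, 871, 1190, 1507, 1831, 2159, 2455, 2844, 3128, 3568 and 3940 bp from its start, with 3 inside and 10 past. Of the 13, 9 lay inside ERAL1, a gene of the opposite strand. The span holds the hairpins of MIR144, MIR451A, MIR451B and MIR4732, and it was the 1 run with a microRNA hairpin of its strand in the span. miR-144 and miR-451 are known as abundant microRNAs of red cell precursors, and MIR451A is processed without Dicer. The nearest calls had no common offset from the hairpins' 5′ ends: 7 bp before that of MIR4732 and 16 bp past that of MIR451A. The call before MIR4732 was also the nearest to MIR144, 119 bp before its 5′ end. The mature sequences of MIR144 and MIR4732 held by the RefSeq table lie 267 to 422 bp past the first call. They are shown 5′ to 3′ with the seed, bases 2 to 8, in capitals, and the 4 seeds differ from each other.
hsa-miR-144-3p: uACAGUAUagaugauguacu
hsa-miR-144-5p: gGAUAUCAucauauacuguaag
hsa-miR-4732-3p: gCCCUGACcuguccuguucug
hsa-miR-4732-5p: uGUAGAGCagggagcaggaagcu
The arms lie on the reverse strand at chr17:28861548-28861567 (miR-144-3p), chr17:28861583-28861604 (miR-144-5p), chr17:28861668-28861688 (miR-4732-3p) and chr17:28861700-28861722 (miR-4732-5p).

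Among the lists of genes examined, run hosts were spread over several groups, beside a background of 82 of 19970 protein-coding genes (0.411%). The lists were chosen with results of these data known, so their counts are descriptive. Globin genes gave 3 hosts of 10 (HBA1, HBA2, HBB), erythroid transcription factors 3 of 16 (IKZF1, KLF1, MYB), haem and iron genes 2 of 19 (SLC25A37, TFRC) and other erythroid genes 3 of 18 (CA1, EPOR and the peroxiredoxin PRDX2). Of 25 red cell membrane genes, none hosted a run, and 16 of them had a call within 500 bp of the start. With a background of 0.411%, finding none among 25 is no result about these genes. SMIM1, a blood-group gene that hosted a run, was not on that list. Immediate early and heat shock genes gave 3 of 20 (JUNB, MYC, PIM1), polymerase and RNA processing genes 3 of 25 (HNRNPA2B1, PCF11, PPP1R10) and cell cycle genes 1 of 20 (RCC1). Marker lists of megakaryocytes, lymphoid cells and neurons gave 0 hosts of 6 each and 0 genes with a start call, and myeloid and hepatocyte lists gave 0 hosts and 1 start call each. A start call was present at 41.6% of all protein-coding genes, and at 6 of 10 globin genes, 11 of 16 erythroid transcription factors, 16 of 19 haem and iron genes and 17 of 18 other erythroid genes.

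Outside the erythroid lists, the largest run was at MALAT1, an abundant nuclear long non-coding RNA (chromosome 11, 65497738 to 65506516, forward strand). It had 19 calls, 15 inside and 4 past the end, and a further run of 6 calls lay 774 bp before it. ZFP36L2, an RNA-binding protein that promotes decay of AU-rich mRNAs, hosted 18 calls, from 2 bp after its start to 1780 bp past its end, with 12 inside and 6 past. PIM1, a serine/threonine kinase induced by cytokine signalling, hosted 16 calls inside the gene, from 68 bp after the start, and after a gap of 533 bp a second run of 10 calls, of which 9 lay past the end. DDIT4, a stress-induced inhibitor of mTORC1, hosted 11 calls from -1 to 3371 bp from the start, 4 of them past its end. MYC, the growth-promoting transcription factor, hosted 3 runs of 4, 4 and 11 calls, with 3 of the last 11 past its end. EEF1A1, the translation elongation factor, hosted 11 calls, 5 inside and 6 past its end, from 3579 bp after its start. EEF1A1, TPT1 and the ribosomal protein genes have many processed copies elsewhere, which adds the same uncertainty about read placement as for the alpha-globin genes. SMIM1, which encodes the Vel blood-group protein, had 9 calls that all lay past its end, from 1039 to 3447 bp past it. Of these, 3 lay inside LRRC47, a gene of the opposite strand.

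**Figure D3:**
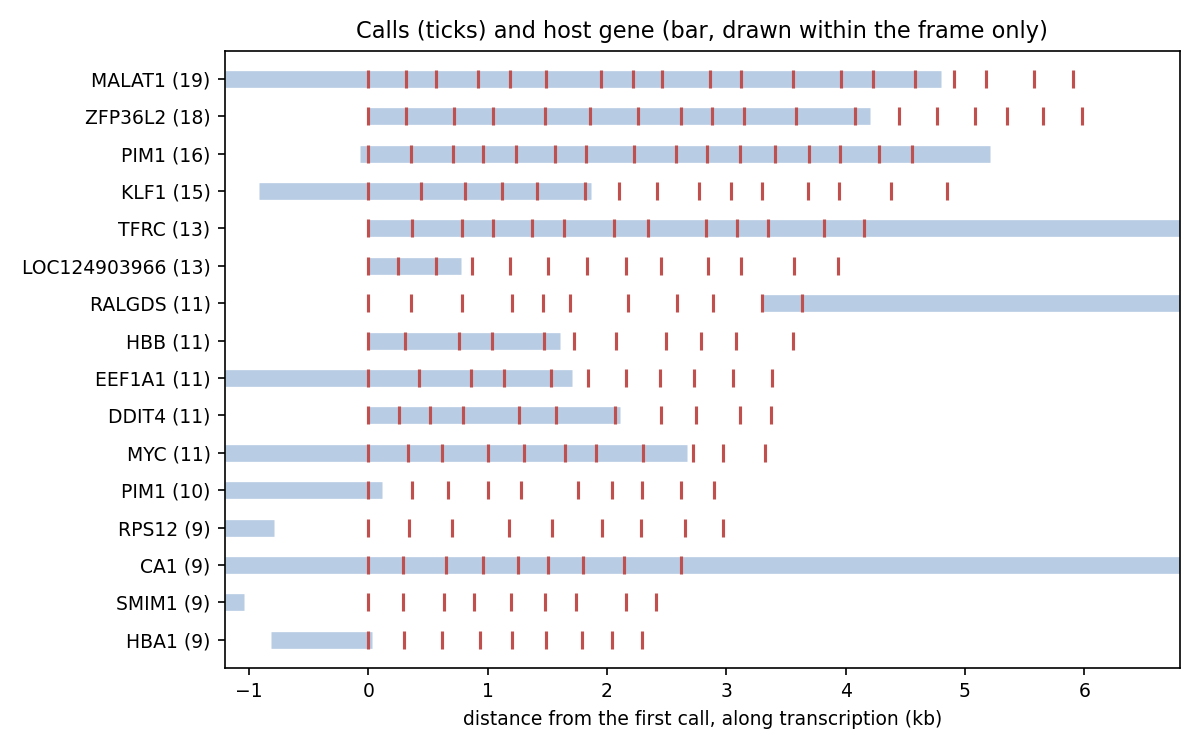
Calls (red ticks) of the 16 hosted runs of 9 or more calls, against distance from the first call along transcription (kb), with the host gene as a blue bar cut at the frame and the number of calls in brackets. Ticks continue past the bar at KLF1, HBB, LOC124903966, EEF1A1 and MYC, and all 9 ticks of RPS12 and of SMIM1 lie past it.

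A host gene was the gene of the run's strand that held most of its calls. With no call in a gene, it was the nearest gene that started within 5000 bp past the last call or ended within 5000 bp ahead of the first. A gene of unresolved strand, even one holding calls, was taken only if no other gene qualified. A host was found for 107 of 118 runs (90.7%, 84.1% to 94.7%), and there were 93 different hosts. Of the 621 calls of hosted runs, 80 lay before the host (12.9%), 320 inside (51.5%) and 221 past its end (35.6%). By whole run, 33 lay inside the host, 26 ran from inside to past the end, 17 lay wholly past it, 17 ran from before to inside, 9 crossed the whole gene and 5 lay wholly before it. So 52 of 107 hosted runs (48.6%, 39.3% to 58.0%) had at least 1 call past the host's end. Their last call lay 271 to 3766 bp past the end, with a median of 1098 bp, and the farthest was at RPS12, a ribosomal protein gene. There 9 calls followed the gene from 790 to 3766 bp past its end, after a run of 4 calls that crossed the end. HNRNPA2B1, an RNA-binding splicing factor, had 7 calls wholly past its end, the last 2581 bp past it.

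**Figure D4:**
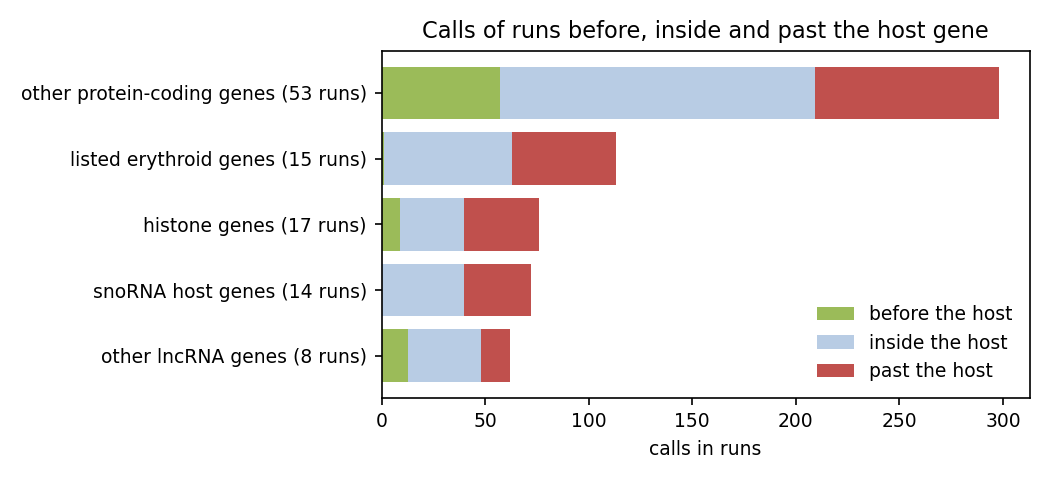
Calls in runs lying before, inside or past the host, by class of host, with the number of runs in brackets. Calls past the end made up 36 of 76 at histone genes, 32 of 72 at snoRNA host genes, 50 of 113 at listed erythroid genes and 89 of 298 at other protein-coding genes.

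Hosts tended to be short. The 82 protein-coding hosts had a median length of 5730 bp (quartiles 2121 and 30590), and the 8236 protein-coding genes with a start call and no run had a median of 28214 bp (quartiles 11778 and 63091). Genes under 2000 bp were 20 of 82 hosts (24.4%, 16.4% to 34.7%) and 2.42% of the other called genes (2.11% to 2.77%). Of these 20, most were histone genes: without the histone genes 5 of 65 hosts were that short (7.69%, 3.33% to 16.8%), and the median host length was 10588 bp. A call lay within 500 bp of the start in 77 of the 82 hosts, while the other genes were selected for such a call. Runs began within 500 bp of a host start, meaning any start of the gene in the RefSeq tables, in 41 of 107 cases (38.3%, 29.7% to 47.8%), and in 27 of 107 the first call was at most 1 bp from it. By the outermost start alone it was 36 of 107. Of the 41, 21 reached past the host's end. A further 44 runs had calls in the host but began away from its start.

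**Figure D5:**
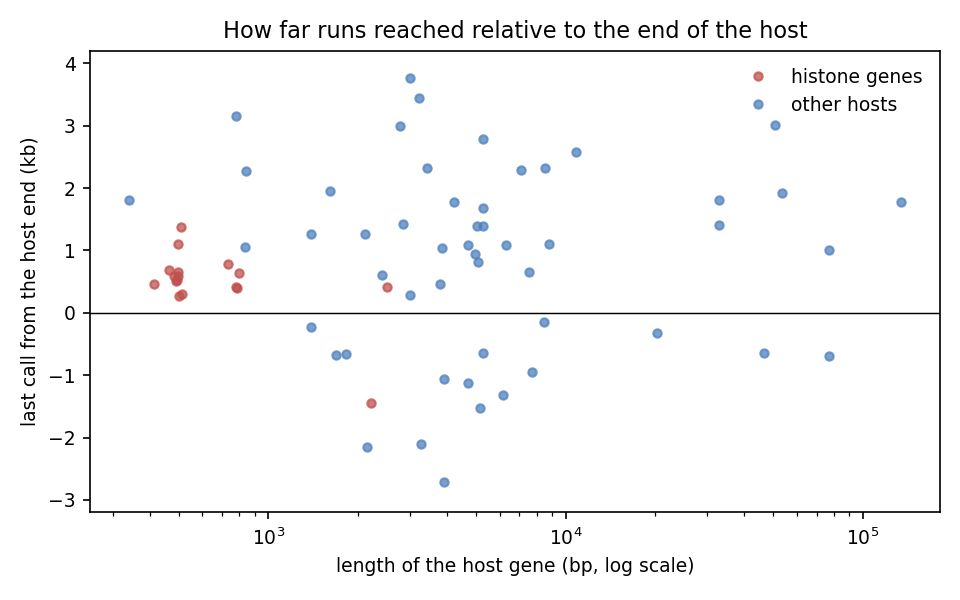
Distance of the last call of a run from the host's end (kb, positive past the end) against host length (bp, log scale), for 69 of the 107 hosted runs; 38 runs that ended over 3000 bp before the end are not drawn. Histone genes sit at the left, 16 of 17 of them above 0.

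Histone genes formed a class of their own among the short hosts, a grouping made after the hosts were seen. The replication-dependent histone genes lie in clusters, lack introns and end in a stem-loop in place of a poly(A) tail. They hosted 17 of the 118 runs, 16 of them on chromosome 6, with 76 calls, and 17 of 73 histone genes of the H1, H2A, H2B, H3 and H4 clusters were hosts (23.3%, 15.1% to 34.2%). By class there were 4 of 10 H1 genes, 4 of 17 H2A genes, 3 of 18 H2B genes, 5 of 13 H3 genes and 1 of 15 H4 genes. H3C1, on the forward strand, had the most calls, 6, at 0, 392, 734, 1197, 1611 and 1880 bp from the start of a gene 508 bp long. H1-2, a linker histone gene, had 5 calls at -1, 357, 650, 1136 and 1516 bp. All 17 runs began within 500 bp of an annotated start, 15 of them within 50 bp, and 16 did so by the outermost start, the exception being H3C4. The end was passed by 16, by a median of 550 bp and by 1373 bp at most. A further run of 4 calls began at the start of H2BC11 and went past its end with no call inside the gene, so it had no host under the rule; with such genes as hosts there were 18 histone runs with 80 calls, and 4 H2B genes. Histone genes of a class are closely similar in sequence, so a call can belong to another copy.

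Genes that hold small nucleolar RNAs (snoRNAs) in their introns made up another class, also grouped after the hosts were seen. SnoRNAs guide chemical modification of ribosomal RNA and are mostly released by trimming of spliced introns. There were 14 runs with 72 calls at 11 such hosts, among them the long non-coding RNA genes GAS5, SNHG1, SNHG6 and SNHG25 and the protein-coding genes RPL13A, RPS12, RPL13, EIF4A2, TPT1 and RCC1. Among protein-coding hosts 7 of 82 held a snoRNA gene (8.54%), and among all protein-coding genes 526 of 19970 did (2.63%).

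In several of these runs the calls coincided with the snoRNAs' own 5′ ends. Of 21 snoRNA genes in the spans of runs, 16 had a run call within 5 bp of the 5′ end (76.2%, 54.9% to 89.4%). Some of them jut out of the span and were included only because the first or last call of the run lay in them; of the 15 wholly inside a span, 10 had such a call (66.7%, 41.7% to 84.8%). The 16 lay at GAS5, SNHG1, RPL13A and RPS12 only. Of 1175 snoRNA genes elsewhere, 102 had a call within 5 bp of an end that could be their 5′ end (8.68%, 7.20% to 10.4%). Only 106 of these 1175 held any call inside (9.02%), and runs were chosen for many calls, so the shares in and outside runs are not like for like. In SNHG1 the calls lay 0 bp from the 5′ ends of SNORD25, SNORD26, SNORD27, SNORD28, SNORD29 and SNORD31, and 29 bp past that of SNORD30. In GAS5 the offsets were 0 bp at SNORD44, 1 bp at SNORD78 and 2 bp at SNORD76, SNORD77 and SNORD79. In RPL13A they were 0 bp at SNORD34, 1 bp at SNORD32A and SNORD35A and -1 bp at SNORD33. The exceptions included SNORA50C and SNORD104 in the run of 7 calls at SNHG25, where the nearest run calls lay 95 bp past and 107 bp before the 5′ end.

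Some runs preceded a gene. Of 19 that began over 50 bp before the host's start and stayed outside or ended inside it, 14 held an opposite-strand call in their span. At several of the 19, such as those at COX20, STT3B, CAND1 and MGA, no gene end of the strand was near. RALGDS, an activator of Ral GTPases, had 10 calls before its start and 1 inside, from 3307 bp before it to 324 bp past it. The first of these lay 431 bp past the end of GBGT1, the neighbour upstream on the same strand. TSPOAP1, which encodes a synaptic scaffold protein, had 6 calls before and 2 inside, and the first lay 138 bp past the end of MIR142HG, the host of the blood-cell microRNA miR-142. All 8 lay inside TSPOAP1-AS1, a gene of the opposite strand. At ZNF34 the run of 5 calls began 794 bp past the end of the ribosomal protein gene RPL8. At SLC33A2 the 4 calls began 787 bp past the end of GPT. LOC105372439 had 8 calls, all before its start, the farthest 3247 bp away, and no gene end of the strand was near. Of these, 4 lay inside ACP4, a gene of the opposite strand. LOC105372439 and SLC33A2 held no call of their strand, and their strands were inferred from calls of these same runs. That these 2 runs lay before a gene of their own strand thus followed from the inference.

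Other hosts are uncertain because the rule takes the gene that holds most of the calls. A run of 5 calls began 216 bp before the end of the ferritin heavy-chain gene FTH1 and had 1 call inside it, yet BEST1 held all 5 and was taken as host, with a strand inferred from calls. The 8 calls given to RCC1 include 4 inside SNHG3, a snoRNA host on the same strand, and the last lay 1101 bp past the end of SNHG3. A run of 5 calls lay inside both LRRC75A and the snoRNA host SNHG29, whose strand is annotated. The 4 calls given to RN7SL685P, a pseudogene whose strand is unresolved, lay for the most part on the opposite strand inside YWHAZ, a 14-3-3 protein gene. The 4 calls given to SNHG6 all lay past its end and inside MCMDC2, which was passed over because its strand is unresolved.

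For 11 runs with 45 calls no host was found under the rule, the run at H2BC11 among them. Of these, 7 overlapped a gene of the opposite strand, namely the cytokine-receptor kinases JAK1 and JAK2, COX20, ANP32A, the zinc-finger genes ZNF181 and ZSCAN31, and LSR. The largest, of 5 calls over 1652 bp, ran on the reverse strand at JAK2 and began 2013 bp inside the gene, measured from its outermost start. Measured likewise, runs began 249 bp inside COX20, 262 bp inside ZNF181, 913 bp inside JAK1, 2958 bp inside ANP32A and 20584 bp inside ZSCAN31. The run at LSR began past the gene's end, 19919 bp from its start, and had 1 call inside. From the nearest listed start the distance was shorter at COX20 (79 bp), ZSCAN31 (447 bp) and JAK2 (1131 bp), and unchanged at ZNF181, JAK1 and ANP32A.

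An opposite-strand call is the usual partner of a promoter call and played no part in the choice of runs. Such a call lay within 1000 bp upstream of the first call in 40 of 118 runs (33.9%, 26.0% to 42.8%), of single calls in 56.2% (55.6% to 56.9%) and of groups of 2 or 3 calls in 57.3% (55.4% to 59.2%). These shares were not tested. Runs that began at the host's start had such a partner in 28 of 41 cases (68.3%, 53.0% to 80.4%), and the other runs in 12 of 77 (15.6%, 9.15% to 25.3%). Where present, the partner lay at a median distance of 187 bp. Partners were found at 13 of 17 runs of histone genes, 4 of 15 of listed erythroid genes and 2 of 14 of snoRNA hosts. Within the spans of runs lay 80 opposite-strand calls, 0.428 per kb, in 49 of the 118 runs.

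Runs of opposite strands overlapped at 2 places. At COX20, a cytochrome c oxidase assembly factor, 4 forward and 4 reverse calls shared chromosome 1 from 244834537 to 244835555. At the histone genes H2AC16 and H1-5, 4 forward and 5 reverse calls overlapped by 232 bp. The runs of JUNB, an AP-1 subunit, and PRDX2 pointed towards each other and ended 3236 bp apart. Neighbouring runs of 1 strand were at most 5000 bp apart in 14 cases and at most 1000 bp in 8. The closest pairs, 508 bp apart and so just outside the rule's limit, were at RPS12 and CA1.

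Runs were spread unevenly over chromosomes. Chromosome 6 held 34 runs, 18 of them without a histone host, chromosome 8 held 15 and chromosome 19 held 12. On chromosomes 4, 14, 20, 21 and X, which had 366 to 915 calls each, there was no run. On chromosome 6, 8.10% of calls were in runs, and on chromosome 8, 6.86%.

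The base composition at calls was read where a promoter of the RefSeq table covered them. A C followed by an A, the usual letters around a cap site, had its A 1 base downstream of the deposited position in 33.0% of 4128 forward and 34.5% of 3935 reverse calls, and at the position itself in 1.65% and 1.37%. Among first calls of runs that offset held in 9 of 28 (32.1%) and among later calls of runs in 2 of 17 (11.8%), and outside runs in 33.8% of 8018. For any pyrimidine followed by a purine the contrast was smaller. The purine lay 1 base downstream in 43.3% of forward and 44.9% of reverse calls, and at the position itself in 32.8% and 31.1%. In first calls of runs these counts were 13 and 11 of 28, and in later calls 4 and 6 of 17. The later calls are too few to set apart from the others at this number. Whether deposited positions lie 1 base upstream of the initiating base was not settled, so offsets of 0 or 1 bp from starts and snoRNA ends may be off by 1 base.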

How the data were processed

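PRO-seq calls were analysed from a pair of series-wide lists, 1 per strand, deposited as intervals of 1 base. Per the file headers, the authors made them with TSScall on a single sorted, de-duplicated HUDEP-2 alignment, whose name is no sample's title. Whether it is an unedited library is not stated, and the TSScall version, the read minimum and the depth are not stated in the sources used. The submitters' processing notes name BWA 0.7.16a, Picard, SAMtools 1.17, deepTools 3.5.4 and build hg38. The deposited score was 0 in all 28283 calls, so it was not used. Positions, as deposited by the authors, were taken as the 1-based end coordinate.

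Runs were built with Python 3.11.15, numpy 2.4.6 and pandas 2.3.3. Gene ends came from the RefSeq table of GRCh38.p14 (59094 genes, 19970 protein-coding), and strands from its promoter and microRNA tables (28752 genes). The plan assumed annotated strands. Genes without one were oriented by their calls, a change made after seeing the data: of the 107 hosted runs, 78 had a host with a table strand, 25 a host oriented by calls, 3 a host called at both ends and 1 a host of unresolved strand. A host is the gene holding most of the run's calls, otherwise the nearest within 5000 bp before or past the run. Genes of unresolved strand were considered only after all others. A run began at a start if its first call lay within 500 bp of any listed start. In the counts over protein-coding genes, a start call lay within 500 bp of the outermost start. Where the strand was unresolved, either end was accepted.

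Members, gene lists, histone and snoRNA groupings were chosen with earlier results of these data known. Named runs were the 15 with the most calls, the 5 longest, the 5 largest of each position class, hosts on the lists and the hosts with most runs; names at snoRNA genes, near-even gaps, uncertain hosts and opposite-strand pairs were chosen after their values were seen. No test was made. The procedure was tested on simulated lists and recovered every planted run. The planted gaps kept to the rule, and each planted gene had a known strand and no near neighbour on it. That checks the code only, and not the choice of hosts among overlapping genes or strands inferred from calls. Alternatives were other gap limits, call minimums, windows, host classes and strands.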

Additional observations from a re-analysis of the deposited data

Results flagged for a closer look

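The mitochondrial genome, which lies outside the chromosomes of the rule, held 2 runs under the same gap limit, 1 per strand, with 91 calls in all. The forward run had 48 calls over 15545 bp, and the reverse run had 43 calls over 13367 bp. Both were longer and held more calls than any run on chromosomes 1 to 22 and X, where the most was 19 calls and 5982 bp. These calls were set apart because they carry runs in data outside the comparisons, and there is no control sample for them.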

How the results depend on the processing

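The number of runs follows the rule: it was 14 with gaps up to 300 bp, 268 with gaps up to 1000 bp, 433 with at least 3 calls and 50 with at least 5, and 66 and 52 on the forward and reverse lists alone. The share of calls in runs was 0.213%, 5.24%, 5.72% and 1.40% under the first 4 of these settings, and protein-coding hosts were 0.826% with gaps up to 1000 bp, 1.29% with at least 3 calls and 0.185% with at least 5. A host was found for 81.4% of runs with protein-coding hosts only and for 98.0% of runs of at least 5 calls. Runs beginning at the host's start were 49.5% with a window of 1000 bp and 26.7% without histone hosts, which was tried only after seeing the data. The median span was 1887 bp with at least 5 calls, within the wide spread over runs. Counting genes that lie between the calls of a run as hosts, also tried after seeing the data, adds H2BC11 and gives a host for 108 runs. The other values, among them those without hosts of unknown strand, stayed within their interval, within the spread over runs or within 1.5 times the count. No paired analysis was possible because the lists hold no column per library. The limits are a single alignment of unstated identity, no reads per call, no replicate and gene ends without exons, so calls of low and high coverage cannot be told apart, and the effect of the caller's settings on the gaps was not tested.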
